A study of Homo sapiens with 10 samples.

Results

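The clustered protocadherins are 53 protein-coding genes in 3 tandem clusters on the long arm of human chromosome 5, out of 19974 protein-coding genes on chromosomes 1 to 22 and X. They were chosen by symbol (PCDHA, PCDHB, PCDHGA, PCDHGB or PCDHGC on chromosome 5), which gave 15 genes in the alpha cluster, 16 in the beta cluster and 22 in the gamma cluster. Methylated DNA was mapped in them by MeDIP-seq, in which an antibody to 5-methylcytosine pulls methylated pieces out of fragmented DNA, so that a peak marks a place rich in them. The cells were HEK293T, a human embryonic kidney cell line, in 5 conditions with 1 immunoprecipitated and 1 input library each: K-KD (labelled KD, a knockdown of KCNQ1OT1), EV, K rep KO, K non-rep KO and WT. KCNQ1OT1 is a long non-coding RNA of an imprinted domain on chromosome 11. What EV, K, rep and non-rep stand for is not spelled out in the labels, nor how many clones a knockout line holds. Each condition has 1 deposited peak list, so no value below has a replicate, no test across samples could be made, and no p-values are given. The peak lists hold no RNA, so neither the knockdown nor the knockouts could be checked on KCNQ1OT1.

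Protocadherins are cadherin-like cell-surface proteins that neurons use to tell their own branches from those of other cells. Each alpha and gamma gene has its own promoter and a large variable first exon, which is spliced to constant exons shared by the whole cluster, whereas most beta genes have 1 large coding exon. A cell uses only some of the promoters. Most carry a conserved element with the core CGCT, to which the chromatin-loop protein CTCF can bind, and methylation of promoters and first exons is known to go with silence of the gene.

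Few promoters carried a peak, in the members as among all protein-coding genes. RefSeq promoter windows (GRCh38.p14), which run from 250 bases before to 50 after a start, were held for 47 of the 53 genes, in 52 windows; PCDHA3, PCDHA13, PCDHB6, PCDHB11, PCDHGA12 and PCDHGC5 had none. Of the 47 genes with a window, 2 had it touched by a peak in K-KD (PCDHA7 and PCDHA10) and 1 in EV (PCDHGB6). In K rep KO there were 2 (PCDHGB2 and PCDHGB6), and in the other lists none. Among 15812 protein-coding genes with a window the share so touched was 3.43% in K-KD, 5.44% in EV, 3.30% in K rep KO, 2.69% in K non-rep KO, against 0.879% in WT. These 4 windows are shown because they are where the peaks and the promoters met, each 5′ to 3′ with CGCT on the gene's strand in capitals.
PCDHA7 (chr5:140834019-140834318, plus strand): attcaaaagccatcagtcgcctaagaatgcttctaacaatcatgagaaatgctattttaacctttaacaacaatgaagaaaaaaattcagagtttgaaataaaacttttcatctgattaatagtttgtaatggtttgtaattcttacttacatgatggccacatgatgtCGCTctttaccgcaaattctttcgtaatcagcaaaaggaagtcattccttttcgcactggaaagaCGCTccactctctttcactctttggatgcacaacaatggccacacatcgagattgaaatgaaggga
PCDHA10 (chr5:140855647-140855946, plus strand): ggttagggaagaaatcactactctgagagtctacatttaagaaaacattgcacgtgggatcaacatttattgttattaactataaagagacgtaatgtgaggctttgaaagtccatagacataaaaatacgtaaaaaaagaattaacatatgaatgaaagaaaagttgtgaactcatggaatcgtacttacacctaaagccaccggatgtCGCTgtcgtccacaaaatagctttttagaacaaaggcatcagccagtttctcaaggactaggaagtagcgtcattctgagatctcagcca
PCDHGB2 (chr5:141359886-141360185, plus strand): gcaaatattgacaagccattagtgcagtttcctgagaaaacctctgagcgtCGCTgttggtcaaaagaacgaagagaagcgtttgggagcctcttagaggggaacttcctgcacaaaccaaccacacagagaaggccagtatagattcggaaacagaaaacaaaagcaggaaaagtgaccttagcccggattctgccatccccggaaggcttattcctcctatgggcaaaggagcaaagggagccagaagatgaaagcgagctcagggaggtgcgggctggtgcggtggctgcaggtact
PCDHGB6 (chr5:141407953-141408252, plus strand): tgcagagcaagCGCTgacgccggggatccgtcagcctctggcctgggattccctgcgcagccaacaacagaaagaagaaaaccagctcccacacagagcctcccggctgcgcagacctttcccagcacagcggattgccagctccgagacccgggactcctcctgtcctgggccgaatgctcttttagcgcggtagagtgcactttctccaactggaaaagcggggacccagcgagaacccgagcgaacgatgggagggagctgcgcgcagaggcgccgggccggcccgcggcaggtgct
The K-KD peak covered 47 bases of the PCDHA7 window and 2 bases of the PCDHA10 window. The K rep KO peak covered 27 bases of the PCDHGB2 window. PCDHGB6 has more than 1 window, and of the one shown the EV peak covered 185 bases and the K rep KO peak 40. The shown windows of PCDHGB2 and PCDHGB6 were placed on later starts than the gene starts used below, 141359994 and 141408021. The K rep KO peaks began at 141360159 in PCDHGB2 and 141408213 in PCDHGB6, more than 50 bases after those gene starts. These K rep KO contacts thus depend on the start chosen. The shown windows hold 7 CpG dinucleotides in PCDHA7, 8 in PCDHA10, 10 in PCDHGB2 and 25 in PCDHGB6. Over the 52 windows the median was 7.50 CpG, against 14.0 over 35116 promoter windows of all genes. CGCT was searched on both strands (AGCG on the other) and was found in 51 of the 52 windows, or 98.1%, against 70.0% of all windows; the PCDHA9 window had no match. The longer string CGCTGT, which contains CGCT and was chosen after the sequences were seen, occurred on either strand (ACAGCG on the other) in 29 windows, or 55.8%, against 11.2% of all windows. On the gene's own strand it began 38 to 249 bases before the start on which the window was placed, with a median of 58.

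Over the gene bodies plus 2 kb on both sides, with each peak counted once, there were 35 peaks in K-KD, 37 in EV, 25 in K rep KO, 19 in K non-rep KO, against 5 in WT. Exact Poisson 95% intervals, which cover counting error only, were 24.4 to 48.7 for K-KD, 26.1 to 51.0 for EV, 16.2 to 36.9 for K rep KO, 11.4 to 29.7 for K non-rep KO, against 1.62 to 11.7 for WT. The WT number was the lowest of the 5, and its interval met only the lower end of that of K non-rep KO. The whole lists held 53919 peaks in K-KD, 87815 in EV, 59098 in K rep KO, 53396 in K non-rep KO, against 30732 in WT, so the clusters took 0.0649%, 0.0421%, 0.0423%, 0.0356% and 0.0163% of them in that order of lists. The share was highest in K-KD and lowest in WT.

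The lists hold no read counts. A summit's number of overlapping fragments was worked out from the authors' fold enrichment and −log10 p, and it was found for all 121 peaks of the clusters. Summits held 5 to 47 fragments with a median of 10.0, over a lowest common background of 1.34 fragments in K-KD, 1.43 in EV, 1.24 in K rep KO, 1.02 in K non-rep KO, against 1.29 in WT. Most cluster peaks therefore rest on few fragments. The variable exons resemble each other, and the sources used here do not give how reads that match several copies were placed, so the gene to which a peak is given is uncertain.

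**Figure D1:**
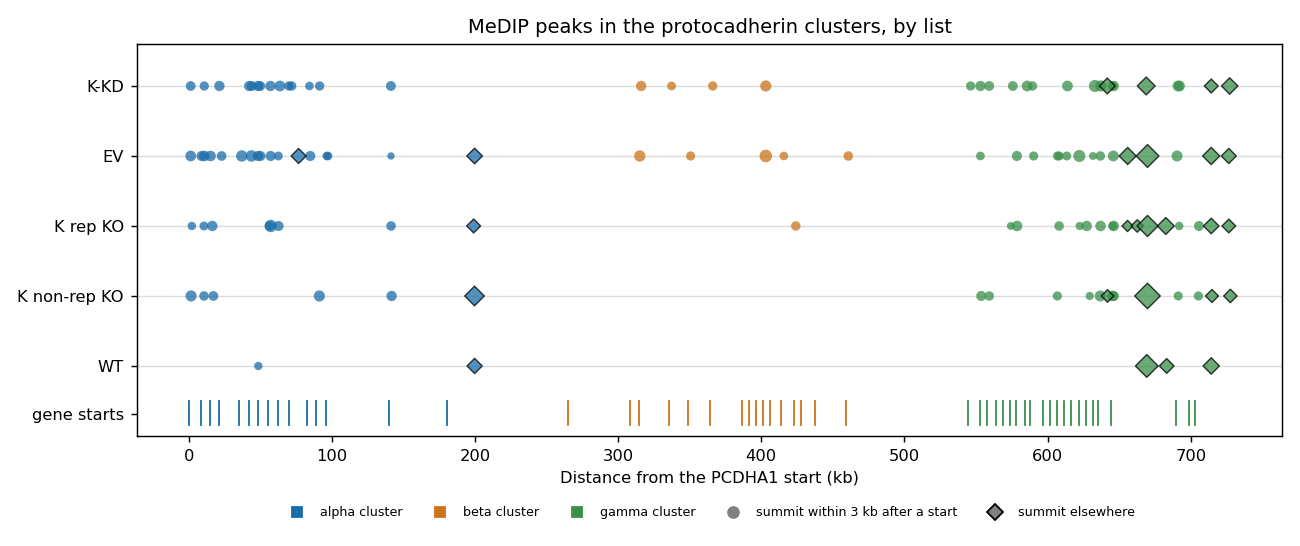
Peaks of the 5 lists along the 3 clusters, by distance in kb of the summit from the start of PCDHA1. Symbol size grows with the authors' fold enrichment, circles are summits within 3 kb after a gene start, outlined diamonds are summits elsewhere, and ticks at the bottom are the 53 gene starts; WT has 1 circle, near PCDHA7, and 4 diamonds.

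The alpha cluster (chromosome 5, 140784140 to 141014347 with the 2 kb margins) held 14 peaks in K-KD, 17 in EV, 8 in K rep KO, 6 in K non-rep KO, against 2 in WT. The gamma cluster (141328514 to 141514975) held 17 in K-KD, 15 in EV, 16 in K rep KO, 13 in K non-rep KO, against 3 in WT. Its numbers in the first 4 lists lay within each other's Poisson intervals. The beta genes, whose 9 separate stretches lie between 141049374 and 141251365, held 4 in K-KD, 5 in EV, 1 in K rep KO, and none in K non-rep KO or WT. A count of 0 allows up to 3.69 peaks. Per 100 kb the beta stretches were the sparsest in K-KD, with 3.53 peaks against 6.08 in alpha and 9.12 in gamma, and in EV, with 4.41 against 7.38 and 8.04.

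Most peaks lay within 3 kb after gene starts. Of the 121 peaks of the 5 lists, 95 (78.5%) had the summit within 3 kb after a member's start, a stretch that makes up 30.0% of the regions. The windows of all 47 genes that have one lie on the plus strand, and the lower coordinate was taken as the start of each gene. In these stretches there were 31 peaks in K-KD, 31 in EV, 18 in K rep KO, 14 in K non-rep KO, against 1 in WT. Elsewhere in the clusters there were 4 in K-KD, 6 in EV, 7 in K rep KO, 5 in K non-rep KO, against 4 in WT. The lists thus differed at the starts, where WT stood at 1, and lay between 4 and 7 elsewhere. Summits in these stretches sat 127 to 2841 bases after the start, with a median of 1576, and 26 of the 95 lay in the first 1 kb. The alpha, beta and gamma medians were 1568, 1678 and 1575 bases. Peaks after starts held 5 to 16 fragments at the summit with a median of 10.0, and peaks elsewhere 6 to 47 with a median of 14.0.

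**Figure D2:**
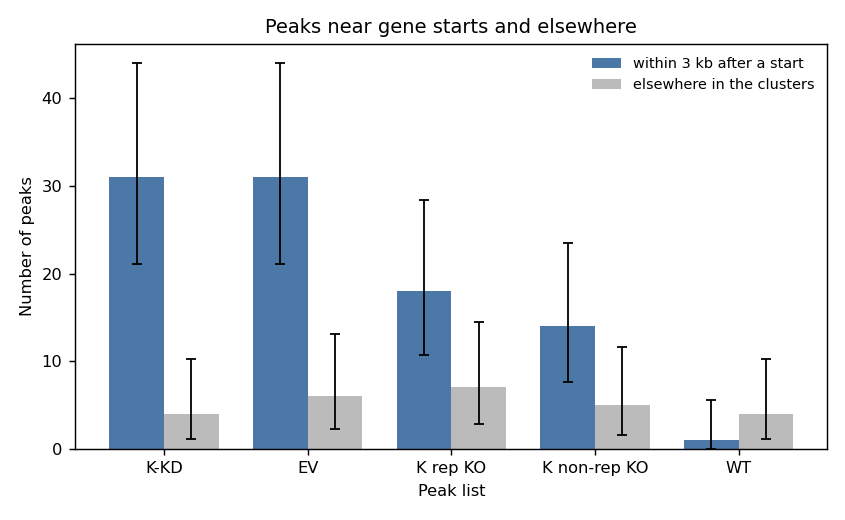
Number of peaks with the summit within 3 kb after a gene start (blue) and elsewhere in the clusters (grey) in each list, with exact Poisson 95% intervals. The blue bars are 31, 31, 18, 14 and 1 from left to right, and the grey bars 4, 6, 7, 5 and 4.

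**Figure D3:**
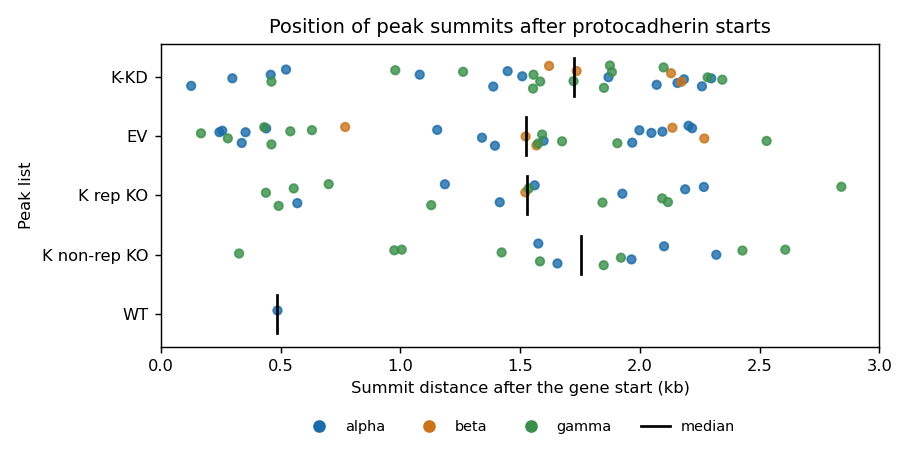
Distance in kb of each summit after the gene start, for the 95 summits within 3 kb, by list and coloured by cluster. Black bars are medians; in K-KD, EV and both knockouts they lie between 1523 and 1752 bases, and the single WT summit lies at 487 bases.

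By gene, 26 of the 53 starts had such a peak in K-KD, 27 in EV, 16 in K rep KO, 13 in K non-rep KO, against 1 in WT. These are 49.1%, 50.9%, 30.2%, 24.5% and 1.89% of the members. Among 15812 protein-coding genes with a promoter window the share was 13.6% in K-KD, 20.6% in EV, 13.5% in K rep KO, 12.2% in K non-rep KO, against 4.59% in WT. The members' share was above that of all genes in each list except WT. The counts differ: a member has 1 start here, with or without a promoter window. A gene of the 15812 counts if the start of any of its windows has such a peak. In K-KD 5 starts had 2 peaks, in EV 4, in K rep KO 2, in K non-rep KO 1, while WT had 0 such starts. No start had a peak in all 5 lists, 6 had one in 4 lists, 6 in 3 lists, 15 in 2 lists, 11 in 1 list and 15 in none.

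**Figure D4:**
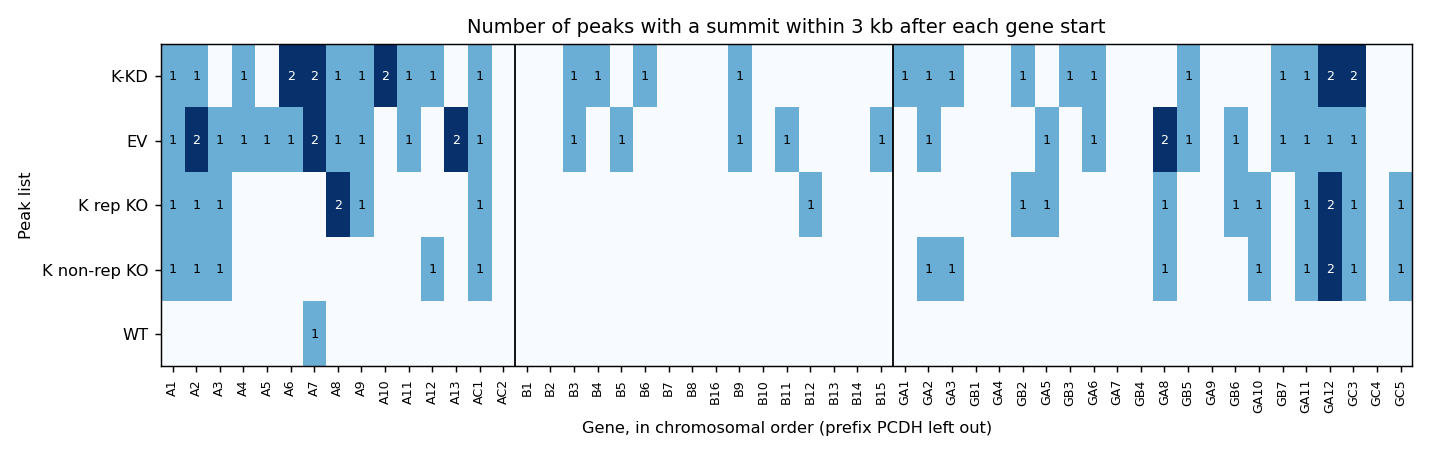
Number of peaks with a summit within 3 kb after each of the 53 gene starts, in chromosomal order, by list; white cells are 0 and lines part the alpha, beta and gamma clusters. Filled cells run through most of the alpha cluster in K-KD and EV, and 1 cell, PCDHA7, is filled in WT.

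In the alpha cluster 14 of 15 starts had a peak in some list. PCDHA1, the outermost gene of the cluster, had 1 peak in K-KD, 1 in EV, 1 in K rep KO, 1 in K non-rep KO, against 0 in WT. PCDHA2 had 1 in K-KD, 2 in EV, 1 in K rep KO, 1 in K non-rep KO, against 0 in WT. In both genes WT was the one list without a peak. PCDHA7 had 2 in K-KD, 2 in EV, 0 in K rep KO, 0 in K non-rep KO, against 1 in WT. It was the only start with a WT peak, at 140834564 to 140834964, with a fold enrichment of 3.05 and 8 fragments at the summit. PCDHA8 had 1 in K-KD, 1 in EV, 2 in K rep KO, and none in K non-rep KO or WT. From PCDHA4 to PCDHA7 the knockout lists had no peak after any start, while K-KD had 5 and EV 5. PCDHAC1, one of the C-type genes, which in mouse are known to be used more evenly among neurons than the other types, had 1 peak in each list except WT. PCDHAC2, the other alpha C-type gene, had none after its start in any list.

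In the beta cluster 8 of 16 genes had no peak in any list: PCDHB1, PCDHB2, PCDHB7, PCDHB8, PCDHB16, PCDHB10, PCDHB13 and PCDHB14. PCDHB3 and PCDHB9 had 1 peak in K-KD and 1 in EV each and 0 in K rep KO, K non-rep KO and WT. The PCDHB9 peaks overlapped, at 141189200 to 141189578 in K-KD and 141189159 to 141189534 in EV, with fold enrichments of 5.56 and 6.99. The PCDHB3 peaks lay apart, at 141102018 to 141102333 in K-KD and at 141101113 to 141101557 in EV. PCDHB4 and PCDHB6 had 1 peak each in K-KD alone, and PCDHB5, PCDHB11 and PCDHB15 had 1 each in EV alone. PCDHB12 had 1 in K rep KO alone.

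In the gamma cluster the most peaks over the 5 lists lay between the starts of PCDHGA12 and PCDHGC3, with 17, and after the PCDHGC5 start, with 11. PCDHGA12, the last A-type gene, had 2 peaks after its start in K-KD, 1 in EV, 2 in K rep KO, 2 in K non-rep KO, against 0 in WT. The single EV peak was 1847 bases wide and overlapped both K-KD peaks. PCDHGA11 had 1 in each list except WT, and PCDHGC3, a C-type gene, had 2 in K-KD, 1 in EV, 1 in K rep KO, 1 in K non-rep KO, against 0 in WT. With PCDHA1, PCDHA2 and PCDHAC1, these are the 6 starts with a peak in K-KD, EV and both knockouts; WT had none at them. PCDHGC5 had 0 in K-KD, 0 in EV, 1 in K rep KO, 1 in K non-rep KO, against 0 in WT, and PCDHGA10 had the same numbers, with its 2 peaks at different positions. PCDHGA8 had 0 in K-KD, 2 in EV, 1 in K rep KO, 1 in K non-rep KO, against 0 in WT. PCDHGB1, PCDHGA4, PCDHGA7, PCDHGB4, PCDHGA9 and PCDHGC4 had no peak of their own, that is between their start and the next start, in any list.

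Over the 5 lists 26 peaks lay away from the starts. The strongest lay about 25.0 kb after the PCDHGA12 start, before the PCDHGC3 start. Exon positions were not used here. It ran from 141454820 to 141456073 in K-KD, 141454835 to 141456146 in EV, 141454830 to 141456162 in K rep KO, 141454834 to 141456136 in K non-rep KO, against 141454888 to 141456047 in WT. Its summit held 33 fragments in K-KD, 36 in EV, 34 in K rep KO, 35 in K non-rep KO, against 47 in WT, and it was the highest peak of the clusters in each list. The authors' fold enrichment was 6.96 in K-KD, 11.4 in EV, 9.74 in K rep KO, 14.3 in K non-rep KO, against 11.3 in WT; each belongs to its own list's background.

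A second region was found in all 5 lists, 11.6 kb after the PCDHGC5 start, between 141500289 and 141501108. Its summits held 13 fragments in K-KD, 20 in EV, 18 in K rep KO, 9 in K non-rep KO, against 15 in WT. A region 19.1 kb after the PCDHAC2 start, between 140985067 and 140986031, had a peak in EV, K rep KO, K non-rep KO and WT and none in K-KD. The stretch at the end of the gamma genes, between 141512490 and 141514214, had peaks in K-KD, EV and both knockouts and none in WT; the K non-rep KO peak joined the others only through the K-KD peak. A region 38.5 kb after the PCDHGA12 start had a peak in K rep KO, with 13 fragments at the summit, and in WT, with 10.

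**Figure D5:**
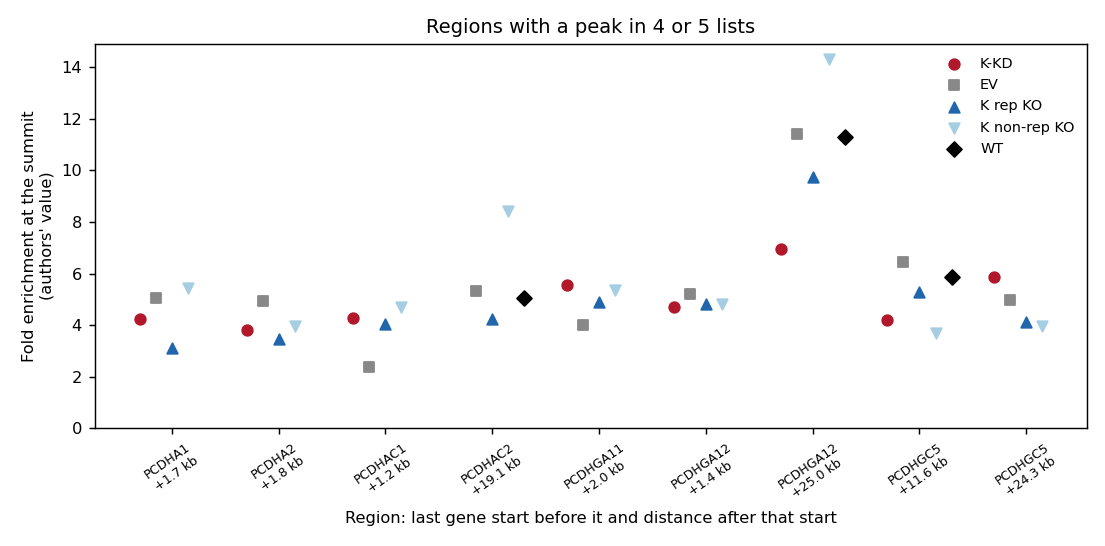
Authors' fold enrichment at the summit, a ratio to the background of the same list, in the 9 cluster regions with a peak in 4 or 5 lists, named by the last gene start before them. The region 25.0 kb after the PCDHGA12 start is the highest in each list, and WT has a value in 3 regions, all 11.6 kb or more after a start.

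Merging overlapping peaks of the 5 lists gave 63 regions in the clusters. Of these 2 (3.17%) had a peak in all 5 lists, against 7.97% of 144156 regions genome-wide, and 32 (50.8%) had one in a single list, against 56.5%. The commonest patterns were EV alone and K-KD alone, with 13 regions (20.6%) each, against 23.7% of all regions for EV alone and 9.94% for K-KD alone. K-KD, EV and both knockouts without WT came next, with 6 regions (9.52%), against 2.66% of all regions. No cluster region had a peak in WT alone, against 4664 (3.24%) of all regions, a share that leaves few to find among 63.

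The first comparison asked how the knockdown K-KD differed from EV. With 35 peaks in K-KD and 37 in EV the clusters were nearly level, while the whole K-KD list was 0.614 times as long as the EV list. The plain ratio in the clusters was 0.946 (95% interval 0.579 to 1.54). Set against the whole lists it was 1.54 (0.942 to 2.51), which includes 1. At gene starts there were 31 and 31 peaks, while over all genes' start stretches the ratio was 0.624. Relative to these the ratio at the members' starts was 1.60 (0.943 to 2.73), which includes 1. In windows of 731 kb on both sides of the clusters K-KD held 33 peaks and EV 55, and over the rest of chromosome 5 the ratio was 0.616. By gene region, 2 of the 44 members with a peak in either list were at least 2-fold higher in K-KD (background 7.22% of all such genes) and 5 at least 2-fold lower (background 39.9%), counting (peaks + 1)/(peaks + 1). The 2 higher were PCDHB4 and PCDHB6, and the 5 lower were PCDHA13, PCDHAC2, PCDHB5, PCDHB11 and PCDHB15. The median ratio was 1.00 over these members and 0.667 over all such genes. Alpha and gamma gene regions are nested, so these genes share peaks and are not separate observations.

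The lists did not mark the same places throughout. Of the 35 K-KD peaks 18 (51.4%, Wilson interval 35.6 to 67.0) were overlapped by an EV peak, against 58.3% of all K-KD peaks. Of the 37 EV peaks 17 (45.9%, 31.0 to 61.6) were overlapped by a K-KD peak, against 35.2% of all EV peaks. Both intervals include the whole-list share. By gene start, 18 of the 53 had a peak in both lists, 8 in K-KD alone and 9 in EV alone. The shared starts are 69.2% of those of K-KD, against 66.0% over all protein-coding genes, and 66.7% of those of EV, against 43.6%. Starts with a peak were commoner among members (49.1% in K-KD, 50.9% in EV) than among all genes (13.6% and 20.6%). Coincident sharing is thus likelier among members, and the shares cannot be set directly against each other. PCDHA13, the last of the numbered alpha genes, had 0 peaks in K-KD and 2 in EV, and PCDHGA8 also 0 and 2. PCDHA2 had 1 in K-KD and 2 in EV, and PCDHA3 and PCDHA5 had 0 and 1. They came first in chromosomal order among genes differing by 1 peak, some of which were higher in K-KD. PCDHA10 had 2 peaks after its start in K-KD and none there in EV.

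K rep KO was compared with WT next. Cluster peaks numbered 25 in K rep KO, against 5 in WT, a ratio of 5.00 (1.88 to 16.7). The whole lists stood at 1.92, so the relative ratio was 2.41 (0.978 to 8.70), which includes 1. Among peaks with −log10 q of 5 or more there were 4 in K rep KO, against 3 in WT, and the relative ratio became 0.738. At gene starts there were 18 peaks in K rep KO, against 1 in WT, a ratio of 18.0 (2.84 to 750), or 6.41 relative to the whole lists (1.48 to 390). The start stretches of all genes stood at 3.17, and relative to these the ratio was 3.90 (0.898 to 237), which includes 1. The windows of 731 kb on both sides held 38 peaks in K rep KO, against 16 in WT, a ratio of 2.33. At −log10 q of at least 5, 1 start peak was left in K rep KO, against 0 in WT. Elsewhere in the clusters there were 7 and 4, a relative ratio of 0.867 (0.231 to 4.24). Over all cluster peaks 4 of 25 (16.0%, 6.40 to 34.7) were overlapped, against 33.3% of the whole list. With 5 WT peaks in the clusters few could be overlapped, so this low share follows from the WT number. Of the 5 WT peaks 4 (80.0%) were overlapped by a K rep KO peak, against 63.2% of the whole WT list. By gene region 32 of 38 members were at least 2-fold higher in K rep KO (background 55.5%) and 0 lower (background 6.51%). The 32 were 9 alpha genes, 1 beta gene and the 22 gamma genes. Because the alpha and gamma regions are nested, a few shared peaks decide many of these genes together. The number is thus not comparable with a background of separate genes. The PCDHGA12 stretch, from its start to that of PCDHGC3, held 6 peaks in K rep KO, against 2 in WT, and PCDHA8 held 2 and 0. From the PCDHGC5 start to the end of the cluster there were 3 and 1.

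Cluster peaks of K non-rep KO were set against the same WT list. They numbered 19 in K non-rep KO, against 5 in WT, a ratio of 3.80 (1.37 to 13.0), or 2.04 (0.790 to 7.49) relative to the whole lists' 1.74. At gene starts there were 14 and 1, a ratio of 14.0 (2.13 to 592) and a relative ratio of 5.56 (1.23 to 341); against the start stretches of all genes it was 3.46 (0.762 to 212), which includes 1. The windows on both sides held 35 peaks in K non-rep KO, against 16 in WT, a ratio of 2.15. With −log10 q of 5 or more 3 start peaks were left in K non-rep KO, against 0 in WT. Elsewhere there were 5 and 4. Over all cluster peaks 3 of 19 (15.8%, 5.52 to 37.6) were overlapped, against 35.4% of the whole list. This share too is held down by the 5 WT peaks and adds nothing on place. Of the 5 WT peaks 3 were overlapped by a K non-rep KO peak, against 59.9% of the whole WT list. By gene region 29 of 37 members were at least 2-fold higher in K non-rep KO (background 52.6%) and 0 lower (background 7.41%). They were 7 alpha and the 22 gamma genes, whose nested regions share peaks, so they are not separate observations to set against the background. Counted from a gene's start to the next start or the end of its cluster, PCDHGA11 held 2 peaks in K non-rep KO, against 0 in WT. So counted, PCDHGC5 held 3 and 1, and PCDHA1, PCDHA2 and PCDHA3 held 1 and 0 each.

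Both knockout comparisons rest on the WT list. EV, whose label names neither a knockdown nor a knockout, had 37 peaks in the clusters and WT 5. The relative ratio was 2.39 (1.02 to 8.44), with a lower end close to 1. Relative to peaks in all protein-coding gene regions it was 1.80, for which no interval was computed. At gene starts there were 31 and 1 (relative ratio 7.35, 1.81 to 442). Against the start stretches of all genes, which stood at 5.03, the ratio was 4.17 (1.03 to 251). The windows on both sides held 55 peaks in EV and 16 in WT, a ratio of 3.36. By gene region 37 of 42 members were at least 2-fold higher in EV (background 72.8%) and 0 lower (background 2.53%). They were 13 alpha, 5 beta and 19 gamma genes. Nested alpha and gamma regions share peaks here too, so the number is not one of separate observations. Of the EV cluster peaks 4 of 37 (10.8%, 4.29 to 24.7) were overlapped by a WT peak, against 24.4% of the whole EV list. Again the 5 WT peaks leave room for few overlaps, so a low share follows from that number. Of the 5 WT peaks 4 (80.0%) were overlapped by an EV peak, against 68.6% of the whole WT list. With EV in place of WT as the control, a choice made after seeing the data, the relative ratio was 1.01 for K rep KO and 0.855 for K non-rep KO. WT peaks also differed in kind across the genome: their median width was 748 bases, against 505 to 522 in the other lists. On chromosome 5 their summits held a median of 16.0 fragments, against 10.0 to 12.0 in the other lists, and 52.3% of them held at most 16 fragments, the highest number at any protocadherin start peak, against 74.1% to 78.2%. The part of this in the low WT number was not tested.

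A further comparison was between the knockouts. Cluster peaks numbered 25 and 19 (K rep KO first, K non-rep KO second), a ratio of 1.32 (0.696 to 2.53) and a relative ratio of 1.18 (0.629 to 2.28), so a difference was not detectable at this depth. With −log10 q of 5 or more there were 4 and 5, and the relative ratio was 0.624. At starts there were 18 and 14, and elsewhere 7 and 5. By gene region 1 of 38 members, PCDHB12, was at least 2-fold higher in K rep KO (background 22.4%) and 0 were lower (background 18.2%). The nested alpha and gamma regions again share peaks. Of the 16 starts with a peak in K rep KO and the 13 in K non-rep KO, 10 were the same, which is 62.5% of those of K rep KO, against 46.9% over all protein-coding genes, and 76.9% of those of K non-rep KO, against 52.0%. These shares rest on few starts. Starts with a peak were also commoner among members (30.2% in K rep KO, 24.5% in K non-rep KO) than among all genes (13.5% and 12.2%). Coincident sharing is thus likelier among members, so the shares are not directly comparable. Of the peaks themselves 10 of 25 of K rep KO (40.0%, against 43.7% of the whole list) and 10 of the 19 of K non-rep KO (52.6%, against 48.8%) were overlapped. The PCDHGA12 stretch held 6 peaks in K rep KO, against 3 in K non-rep KO, and PCDHA8 held 2 and 0. PCDHA9 had 1 and 0 and PCDHA12 had 0 and 1.

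Genes around the clusters and related genes were counted for context. The 12 neighbour genes held 12 peaks in K-KD, 13 in EV, 15 in K rep KO, 14 in K non-rep KO, against 2 in WT, summed by gene. DIAPH1, a formin gene near the gamma cluster, held 5 in K-KD, 5 in EV, 3 in K rep KO, 5 in K non-rep KO, against 1 in WT. The 12 protocadherin genes outside the clusters held 13 in K-KD, 20 in EV, 17 in K rep KO, 12 in K non-rep KO, against 7 in WT. PCDH15, a hair-cell gene, held 4 in K-KD, 4 in EV, 3 in K rep KO, 3 in K non-rep KO, against 3 in WT. The 15 genes for regulators of the clusters held 61 in K-KD, 123 in EV, 76 in K rep KO, 68 in K non-rep KO, against 34 in WT. CTCF itself held 3 peaks in K-KD, 11 in EV, 8 in K rep KO, 11 in K non-rep KO, against 6 in WT. DNMT3B, a de novo DNA methyltransferase gene, held 3 in K-KD, 2 in EV, 3 in K rep KO, 1 in K non-rep KO, against 0 in WT. At least 2-fold lower in K-KD than in EV were 6 of the 15 regulator genes and 4 of the 12 protocadherin genes outside the clusters, beside the background of 39.9%.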

How the data were processed

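From 10 samples of HEK293T cells, 5 narrowPeak lists, 1 per condition, were used; 1 further list matched no sample label and was not used. Per the submitters' processing notes, the tools were Bowtie2, MACS2 and deepTools and the build GRCh38. The sources used here give no versions, settings, pooling or control. In the deposited files each peak has a fold enrichment, a ratio of the summit to its local background, with −log10 p and −log10 q for that summit. The deposited score is −log10 q times 10. Peak names inside the knockout lists carry other prefixes than the lists, so their assignment rests on the lists' names.

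Peaks elsewhere than chromosomes 1 to 22 and X (3.56% to 5.83%) were left out, with 1-based coordinates. Genes and promoter sequences came from RefSeq tables of GRCh38.p14. A peak counted with 1 bp of overlap, and it was given to the last member start before its summit. Relative ratios add 0.5 to both numbers and divide by the ratio over all peaks. Their intervals are exact (Clopper-Pearson) ones of the plain ratio without the 0.5, divided by the same ratio. Those of shares are Wilson, all at 95%. They cover counting error only, and neighbouring peaks are not independent. Summit fragments k and background b solve fold = (k + 1)/(b + 1) and an upper Poisson tail within 0.001. Counting and solving were tested on simulated data. Python 3.11.15, numpy 2.4.6, pandas 2.3.3, scipy 1.17.1 and matplotlib 3.10.9 were used. Alternatives were stricter peaks, lists of equal length, other regions, overlaps and backgrounds, covered bases, and EV as control. Genes named were, per cluster, the 5 with most peaks, per comparison the 3 with the largest difference, and those without peaks. Ties in a difference were taken in chromosomal order, up to 5 genes per comparison. Other named genes were chosen after their values were seen. Ratios at gene starts were added after seeing the data. The members, lists and alternatives were chosen with earlier results of these data known.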

Additional observations from a re-analysis of the deposited data

How the results depend on the processing

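With −log10 q of 5 or more, few cluster peaks were left, and several values moved outside their intervals. The relative ratio over all clusters was then 0.738 for K rep KO against WT (4 peaks and 3) and 0.624 for K rep KO over K non-rep KO (4 and 5), both on the other side of 1. In the alpha cluster it was 0.436 for K-KD against EV and 0.327 for K rep KO over K non-rep KO. At gene starts 8 peaks then were left in K-KD, 10 in EV, 1 in K rep KO, 3 in K non-rep KO, against 0 in WT. Shares overlapped became 50% for K rep KO by WT (2 of 4 peaks) and 40.0% for K non-rep KO by WT (2 of 5). They became 25.0% for EV by K-KD (4 of 16), 20.0% for K non-rep KO by K rep KO (1 of 5) and 100% for WT by EV (3 of 3). These rest on very few peaks, and the whole lists' shares at this filter were not computed. Fewer peaks are part of that filter's construction. With gene starts read as 1 kb instead of 3 kb, the share of cluster peaks near starts was 17.1% in K-KD, 32.4% in EV, 20.0% in K rep KO, against 10.5% in K non-rep KO.

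Over the settings that kept each comparison's own control, the relative ratio over all clusters ranged from 1.42 to 1.95 for K-KD against EV. It ranged from 0.738 to 2.41 for K rep KO against WT and from 1.17 to 2.11 for K non-rep KO against WT. For K rep KO over K non-rep KO it ranged from 0.624 to 1.36, and for EV against WT from 1.63 to 2.69. At gene starts, set against the starts of all genes, the ratio to WT was 3.90 for K rep KO and 3.46 for K non-rep KO, and both intervals then included 1. With EV as control, added after seeing the data, the ratio was 1.01 for K rep KO and 0.855 for K non-rep KO. Most summits rest on about 10 fragments, which limits what single peaks show. No paired analysis was possible because each condition has 1 list.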

Other observations

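Peaks also lay at pseudogenes of the clusters and in the gaps between gene regions. PCDHA14, an alpha pseudogene, held 0 peaks in K-KD, 1 in EV, and none in the other lists. PCDHGB8P held 1 in K-KD, 0 in EV, 0 in K rep KO, 1 in K non-rep KO, against 0 in WT. PCDHGB9P held 0 in K-KD, 1 in EV, 1 in K rep KO, 0 in K non-rep KO, against 0 in WT. The beta pseudogenes PCDHB17P, PCDHB18P and PCDHB19P held none in any list. WT had no peak at any of these 6 pseudogenes.

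The gaps between the gene regions held 2 peaks in K-KD, 1 in EV, 1 in K rep KO, 0 in K non-rep KO, against 2 in WT. K rep KO had a peak within PCDHB1-AS1, a long non-coding RNA gene of the beta cluster, at 141076320 to 141076825, and WT had one at 141076323 to 141077575. The EV peak at 141274681 to 141275381 overlapped the other WT peak, at 141274704 to 141275975, where no gene is annotated. K-KD had a peak at 141077586 to 141077881, in PCDHB1-AS1 beside the WT peak, and another at 141303756 to 141304585, at SLC25A2, a mitochondrial carrier gene between the beta and gamma clusters.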
